A study of Homo sapiens with 3 samples.

Results

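The 49 genes described here encode proteins of the large subunit of the mitochondrial ribosome. They were chosen by name, as every gene of the count table whose symbol is MRPL followed only by a number, which gave 49 of the 63241 genes listed and left out pseudogenes. Mitochondrial ribosomes (mitoribosomes) translate the few mRNAs encoded by mitochondrial DNA, which specify core subunits of the respiratory chain and of ATP synthase. Their RNAs are made inside the organelle, whereas their proteins are encoded in the nucleus, translated in the cytosol and imported. The large subunit forms peptide bonds and holds the exit tunnel, through which the new chain leaves towards the inner membrane, a stalk that recruits translation factors and the central protuberance, which faces the small subunit. Some of its proteins have bacterial counterparts and others occur only in mitochondria.

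Ribosome profiling sequences the mRNA fragments protected by ribosomes, so that a gene's count follows how many ribosomes occupied its mRNAs. The study asked whether ribosome occupancy differs in cells that express mutant p53. HEK293T cells, a line derived from human embryonic kidney that also contains SV40 large T antigen, a known p53-binding protein, expressed a construct of wt, G245S or R273H p53, and all groups were treated briefly with cycloheximide before harvest. Each of the 3 groups is 1 sample in the labels, with 3 libraries from 3 dishes (n = 3 dishes per group below). The labels call the cells both stable and transient, whereas the paper describes stable lines, with separate dishes of each line as replicates. The labels also name the wt construct in the treatment field of the mutants, so groups rest on the sample titles. Reverse transcription was done on 1 pool of dishes for each group. Group, cell line and pool therefore cannot be told apart. P-values measure differences against a spread between dishes that lacks any variation between lines or added after pooling. Libraries held 18.7 to 24.6 M counts, 789.9 to 7988 of them per MRPL gene, and all 49 genes passed the filter on low counts. MDM2 and CDKN1A, targets of wild-type p53, were lower in both mutants. Their mean levels were 860.3 and 61.1 CPM in WT (counts for each 1 M counts of a library, after TMM scaling), against 76.8 and 16.1 CPM (G245S) and 76.7 and 13.9 CPM (R273H). Of the epithelial and kidney line markers, VIM was at 883 to 983 CPM, KRT18 at 107 to 122, KRT8 at 32.6 to 44.7 and PAX2 at 4.99 to 8.12, whereas PTPRC, CD3E, ALB, PECAM1, UMOD and NPHS1, markers of leukocytes, hepatocytes, endothelium and mature kidney, did not exceed 0.16 CPM in any library. Footprint counts do not separate the abundance of an mRNA from its translation, nor a change per cell from a change in the number of cells.

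The MRPL genes moved in both directions in the mutants, by small amounts. In G245S against WT, 10 rose and 5 fell (15 of 49, 30.6%; edgeR quasi-likelihood test, adjusted p under 0.05), beside 24.7% of all 19820 genes tested (12.6% rising and 12.1% falling). In R273H against WT, 14 rose and 13 fell (27 of 49, 55.1%), beside 28.8% of all genes (14.2% rising and 14.6% falling). Calls were more frequent among well-covered genes in general: of the 4224 genes whose mean counts lay within the range of the MRPL genes, 44.4% passed the test for G245S and 50.3% for R273H. The share of MRPL genes was below this in G245S and above it in R273H. The 49 log2 fold changes had a median of 0.028 for G245S and -0.0246 for R273H, beside -0.000686 and -0.0024 over all genes tested. Both contrasts use the same WT libraries, so their values are given side by side and their likeness is not counted as a result. After a trend with coding length and GC content was taken out of all genes the split shifted to 27 that rose and 2 that fell for G245S, and to 25 and 4 for R273H, so the balance of directions depends on that choice. The share of all genes called with that trend removed is not given here, so these counts have no background beside them. In the R273H contrast, 9 rose without WT dish 1 and 8 fell without R273H dish 1.

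Calls against WT were shared as follows. MRPL2, MRPL3, MRPL13, MRPL21, MRPL32, MRPL35, MRPL45, MRPL47 and MRPL48 rose in both mutants (9 genes), and MRPL33, MRPL49, MRPL51, MRPL53 and MRPL57 fell in both (5 genes). In R273H 5 further genes rose (MRPL1, MRPL19, MRPL22, MRPL39 and MRPL44) and 8 fell (MRPL16, MRPL17, MRPL27, MRPL28, MRPL34, MRPL41, MRPL43 and MRPL54), and MRPL4 rose in G245S. The other 21 passed the test in neither contrast. Among the genes called in 1 mutant, the direct test between the mutants separated MRPL17 and MRPL34. All 3 libraries of the mutant lay above all 3 of WT for 14 genes in G245S and 14 in R273H, beside 18.6% and 20.3% of all genes, and all 3 lay below for 6 and 17 genes, beside 18.8% and 20.9%. The genes together took 0.575% ± 0.00258 (SD, n = 3 dishes) of all WT counts, 0.575% ± 0.00339 of those in G245S and 0.571% ± 0.00307 of those in R273H.

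**Figure D1:**
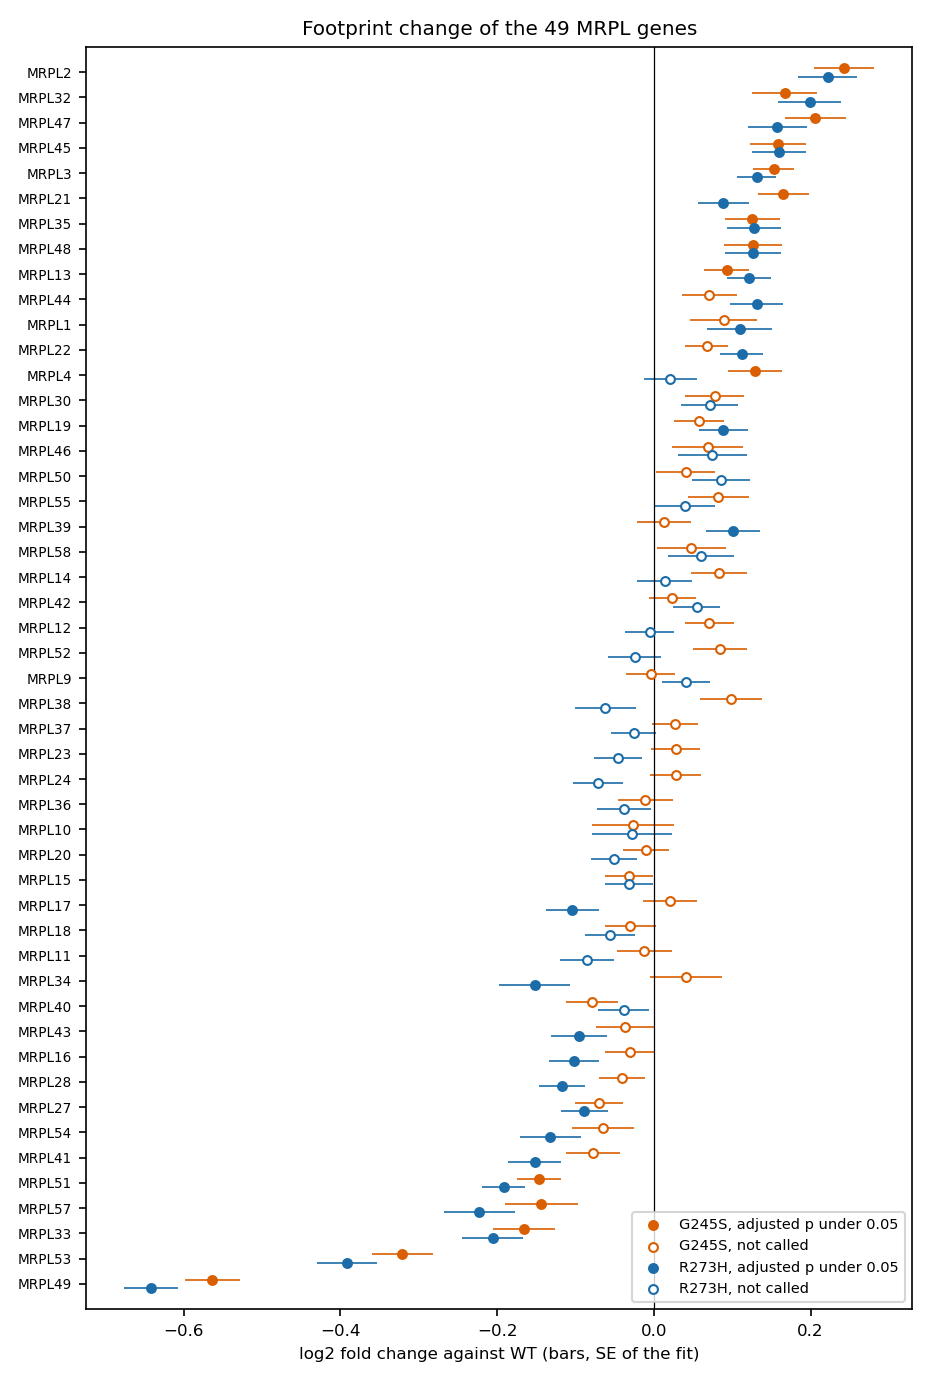
Log2 fold change of each of the 49 MRPL genes against WT in G245S (orange) and R273H (blue), with bars for the SE of the fit and filled points where the adjusted p was under 0.05. MRPL49 at -0.56 and -0.64 and MRPL53 at -0.32 and -0.39 stand below the other genes, and MRPL2 at 0.24 and 0.22 is at the top.

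The lowest values in both mutants were those of MRPL49, a mitochondria-specific protein (chr11:65122183-65127371, plus strand, GRCh38). It had 148, 149 and 142 CPM in the 3 WT libraries, 102, 102 and 94.01 in those of G245S and 95.2, 94.03 and 92.2 in those of R273H. The WT libraries lay above all mutant libraries by a wide margin. Footprints fell by 32.3% in G245S (log2 fold change -0.56, SE 0.0349, adjusted p = 3.61e-13) and fell by 35.9% in R273H (log2 fold change -0.64, SE 0.0343, adjusted p = 1.02e-14; edgeR). In this gene the call held under all alternatives run in both contrasts, including a test against a minimum change of 1.2-fold. The mutants were not separated from each other (log2 fold change 0.0784, SE 0.0357, adjusted p = 0.278). Part of its exons overlap SYVN1 on the other strand, whose mean level was 62.95 CPM (WT), 64.00 CPM (G245S) and 61.1 CPM (R273H), with adjusted p of 0.815 and 0.567 against WT.

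FAU was looked at after these values were seen. Its outermost start in GENCODE lies 6 bases from that of MRPL49 on the opposite strand, so that they are transcribed away from each other. The RefSeq start site used for the MRPL49 promoter below is a different one. FAU encodes a ubiquitin-like protein fused to a cytosolic ribosomal protein. FAU had 895, 865 and 901 CPM in the 3 WT libraries, 724, 729 and 708 in those of G245S and 669, 672 and 691 in those of R273H. It fell in both mutants as well, with no overlap of libraries with WT (log2 fold change -0.30, SE 0.0233, adjusted p = 5.61e-11 in G245S and log2 fold change -0.39, SE 0.0232, adjusted p = 1.53e-13 in R273H; edgeR).

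MRPL53, a protein near the base of the stalk (chr2:74471982-74472687, minus strand), was next. It had 79.96, 77.7 and 74.98 CPM in the 3 WT libraries, 63.1, 60.9 and 62.3 in those of G245S and 58.2, 59.9 and 59.3 in those of R273H, and again no mutant library reached the WT range. Its footprints fell by 19.9% in G245S (log2 fold change -0.32, SE 0.0390, adjusted p = 3.46e-07) and fell by 23.8% in R273H (log2 fold change -0.39, SE 0.0383, adjusted p = 5.48e-09; edgeR). The call was kept under all alternatives run but the test against a 1.2-fold minimum in G245S, where the adjusted p was 0.33. Its exons overlap CCDC142 on the same strand, which held 9.23 CPM on average over the libraries.

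MRPL33, MRPL51 and MRPL57 also fell in both mutants. MRPL33, the counterpart of a small bacterial large-subunit protein, had 71.8, 71.4 and 76.1 CPM in the 3 WT libraries, 65.2, 64.7 and 65.4 in those of G245S and 61.7, 63.3 and 65.2 in those of R273H. The WT and mutant libraries did not overlap (log2 fold change -0.17, SE 0.0397, adjusted p = 0.00242 in G245S and log2 fold change -0.21, SE 0.0388, adjusted p = 1.73e-04 in R273H; edgeR). It shares exons on the same strand with BABAM2, which was at 72.03 CPM on average and did not pass the test in either mutant (adjusted p = 0.451 and 0.649). MRPL51, a mitochondria-specific protein, had 221, 222 and 229 CPM in the 3 WT libraries, 207, 199 and 201 in those of G245S and 193, 194 and 201 in those of R273H. Every mutant library was below every WT library (log2 fold change -0.15, SE 0.0281, adjusted p = 2.45e-04 and log2 fold change -0.19, SE 0.0278, adjusted p = 4.84e-06; edgeR). MRPL51 exons overlap NCAPD2 on the other strand, a condensin subunit that moved the other way, from 328 CPM (WT) to 387 CPM (G245S) and 349 CPM (R273H), and its part in the MRPL51 result was not tested. MRPL57, also mitochondria-specific, had 47.1, 50.2 and 47.9 CPM in the 3 WT libraries, 42.8, 44.8 and 43.8 in those of G245S and 40.9, 40.9 and 42.7 in those of R273H, with no overlap (log2 fold change -0.14, SE 0.0463, adjusted p = 0.0226 and log2 fold change -0.22, SE 0.0454, adjusted p = 4.18e-04; edgeR). The call of MRPL57 in G245S was lost without WT dish 2, G245S dish 1 or G245S dish 3, and with DESeq2 (adjusted p = 0.123). With the length and GC trend removed, MRPL33 and MRPL51 lost the call in G245S (adjusted p = 0.314 and 0.0575) and MRPL57 lost it in both mutants (adjusted p = 0.265 and 0.147).

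**Figure D2:**
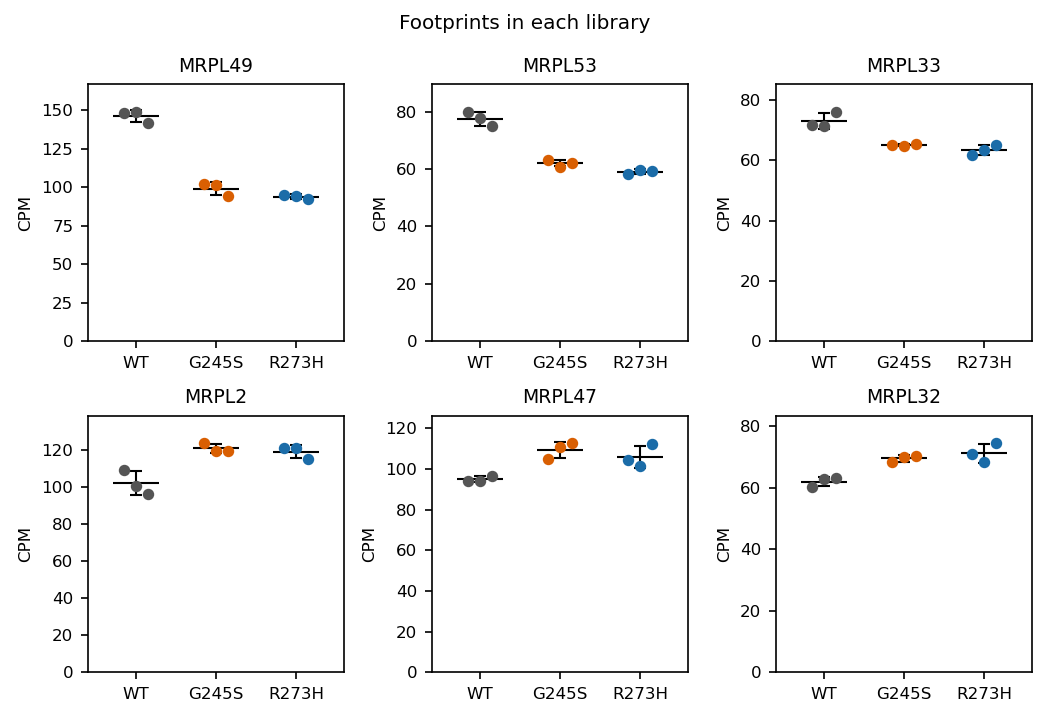
CPM of 6 MRPL genes in every library, with the mean (horizontal line) and SD (bars) of 3 dishes, on axes that start at 0. MRPL49, MRPL53 and MRPL33 are lower in every mutant library than in every WT library, and MRPL2, MRPL47 and MRPL32 are higher.

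Among the genes that rose, MRPL2, whose bacterial counterpart lies close to the site of peptide bond formation, changed most. It had 109, 100.5 and 96.4 CPM in the 3 WT libraries, 123, 119 and 119.6 in those of G245S and 121, 121 and 115 in those of R273H. The mutant libraries all lay above WT, although WT dish 1 stood nearer to them than the other WT dishes. MRPL2 rose by 18.4% in G245S (log2 fold change 0.24, SE 0.0383, adjusted p = 2.26e-05) and by 16.6% in R273H (log2 fold change 0.22, SE 0.0376, adjusted p = 4.94e-05; edgeR). MRPL47, a protein at the mouth of the exit tunnel, had 93.96, 93.99 and 96.6 CPM in the 3 WT libraries, 105, 111 and 112 in those of G245S and 104, 101 and 112 in those of R273H. All mutant libraries were above WT (log2 fold change 0.21, SE 0.0385, adjusted p = 1.87e-04 and log2 fold change 0.16, SE 0.0379, adjusted p = 0.00216; edgeR). Its exons overlap ACTL6A on the other strand, which rose in the same way, from 139 CPM (WT) to 156 CPM (G245S) and 154 CPM (R273H). With the handling of strand not given in the sources used here, reads of this pair cannot be told apart.

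MRPL32, which is cut to its mature form by a protease of the inner membrane, had 60.2, 62.7 and 63.05 CPM in the 3 WT libraries, 68.2, 70.1 and 70.3 in those of G245S and 70.8, 68.3 and 74.3 in those of R273H. No mutant library fell within the WT range (log2 fold change 0.17, SE 0.0412, adjusted p = 0.00325 in G245S and log2 fold change 0.20, SE 0.0401, adjusted p = 3.67e-04 in R273H; edgeR). MRPL21, which has a bacterial counterpart, had 101, 106 and 104 CPM in the 3 WT libraries, 116, 116 and 116 in those of G245S and 112, 108 and 111 in those of R273H. Both mutants lay above WT (log2 fold change 0.17, SE 0.0329, adjusted p = 3.84e-04 and log2 fold change 0.0887, SE 0.0324, adjusted p = 0.0398; edgeR), but the call in R273H was lost without any 1 of WT dish 1, WT dish 3, G245S dish 2, R273H dish 1 or R273H dish 3, and with DESeq2 (adjusted p = 0.11). MRPL45 binds the inner membrane beside the exit tunnel and had 75.9, 76.6 and 75.5 CPM in the 3 WT libraries, 83.95, 85.9 and 84.6 in those of G245S and 83.03, 86.6 and 85.05 in those of R273H. The increase was nearly the same in both mutants (log2 fold change 0.16, SE 0.0357, adjusted p = 0.00139 and log2 fold change 0.16, SE 0.0349, adjusted p = 8.54e-04; edgeR). A pseudogene, MRPL45P2, was listed with 14.1% of the level of MRPL45, so the division of reads between them is uncertain. MRPL3, the MRPL gene with the highest CPM (314 on average), rose as well, with log2 fold changes of 0.15 in G245S and 0.13 in R273H, and MRPL13, MRPL35 and MRPL48 rose by log2 fold changes of 0.0932 to 0.13. Of these, the calls of MRPL13 (without WT dish 1, WT dish 2 or G245S dish 1), MRPL35 (without G245S dish 1) and MRPL48 (without WT dish 1 or G245S dish 3) in G245S depended on single libraries, as did that of MRPL48 in R273H (WT dish 1).

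The further calls in R273H were of small size. The 5 further increases had log2 fold changes of 0.0889 (MRPL19) to 0.13 (MRPL44), and the 8 further decreases ran from -0.0886 (MRPL27) to -0.15 (MRPL34 and MRPL41). Of all 27 genes called in R273H, 16 were called whichever library was left out, and 11 lost the call in at least 1 of these fits. All 8 further decreases also lost the call with the length and GC trend removed, where their log2 fold changes ran from -0.0472 (MRPL28) to 0.0139 (MRPL43). The 11 genes that lost the call without a library were MRPL1, MRPL16, MRPL17, MRPL19, MRPL21, MRPL27, MRPL34, MRPL39, MRPL43, MRPL48 and MRPL54. In G245S, 11 of 15 were called in every such fit.

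The genes were next grouped by what is known of their proteins. Of the 30 with a bacterial counterpart, 8 rose and 1 fell in G245S and 10 rose and 6 fell in R273H (30% and 53.3% called, beside 24.7% and 28.8% of all genes and 44.4% and 50.3% of genes in the same range of counts), with medians of 0.0494 and 0.00433 on the log2 scale. Of the 19 that occur only in mitochondria, 2 rose and 4 fell in G245S and 4 rose and 7 fell in R273H (31.6% and 57.9% called), with medians of 0.0238 and -0.0256. Of 9 proteins around the exit tunnel, 3 rose in G245S (MRPL4, MRPL45 and MRPL47), and in R273H 5 rose (MRPL22, MRPL39, MRPL44, MRPL45 and MRPL47) while MRPL17 fell. The 9 had positive log2 fold changes throughout in G245S (0.0127 to 0.21) and medians of 0.0676 and 0.1 in G245S and R273H. Of 9 proteins of the central protuberance, MRPL48 rose in both mutants and MRPL27 fell in R273H. Of 6 stalk proteins, MRPL53 fell in both mutants and MRPL54 fell in R273H. MRPL1, which belongs to a different stalk from that of MRPL12, rose in R273H. No difference between these groups was tested.

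Proteins with functions of their own showed small differences. MRPL12, which forms the flexible part of the stalk and binds translation factors, had 124, 127 and 122 CPM in the 3 WT libraries, 132, 132 and 128 in those of G245S and 121, 124 and 127 in those of R273H. The G245S libraries lay above WT and the R273H libraries overlapped it (log2 fold change 0.0711, SE 0.0318, adjusted p = 0.105 and log2 fold change -0.00503, SE 0.0313, adjusted p = 0.927; edgeR), and neither passed the test. A gene with no symbol, ENSG00000262660, shares exons with MRPL12 on the same strand and rose in both mutants, from 29.8 CPM (WT) to 34.45 CPM (G245S) and 35.9 CPM (R273H). Its part in the MRPL12 values was not tested. MRPL44, which has the fold of a double-strand ribonuclease, had 104, 105 and 112 CPM in the 3 WT libraries, 109, 113 and 115 in those of G245S and 115, 118 and 119.6 in those of R273H. The R273H libraries lay above the WT range and the G245S libraries overlapped it (log2 fold change 0.0706, SE 0.0351, adjusted p = 0.149 in G245S and log2 fold change 0.13, SE 0.0342, adjusted p = 0.00443 in R273H; edgeR), and the direct test did not separate the mutants (adjusted p = 0.403). MRPL58, a peptidyl-tRNA hydrolase that releases stalled chains, had 50.4, 48.4 and 49.9 CPM in the 3 WT libraries, 50.9, 51.9 and 51.00 in those of G245S and 49.9, 52.2 and 53.05 in those of R273H. Neither contrast passed the test (log2 fold change 0.0479, SE 0.0438, adjusted p = 0.471 and log2 fold change 0.0602, SE 0.0426, adjusted p = 0.316; edgeR). With the length and GC trend removed, MRPL12 passed in both mutants (0.11, adjusted p = 0.00418, and 0.0838, adjusted p = 0.0205), MRPL44 in G245S also (adjusted p = 0.0184) and MRPL58 in R273H (adjusted p = 0.00699).

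Between the mutants, 3 genes were higher in G245S than in R273H (3 of 49, 6.12%, beside 2.59% of all genes, 1.86% higher and 0.732% lower). None was lower by edgeR, with 1 at an unadjusted p under 0.05 and 0 by DESeq2. Of the genes in the same range of counts 5.16% were called. The median log2 difference of the 49 was 0.0395, beside 0.000593 over all genes. All 3 G245S libraries lay above all 3 of R273H for 18 genes and below for 2, beside 11.6% and 9.86% of all genes. MRPL34, the counterpart of a very small bacterial protein, had 62.4, 56.8 and 59.2 CPM in the 3 WT libraries, 63.5, 59.4 and 60.9 in those of G245S and 50.6, 55.4 and 54.7 in those of R273H. G245S overlapped the WT range and R273H lay below it, and the mutants differed by a log2 value of 0.19 (SE 0.0452, adjusted p = 0.0166; edgeR). MRPL34 exons overlap ABHD8 on the other strand, which had means of 5.77 CPM (WT), 5.60 CPM (G245S) and 4.49 CPM (R273H). Its part in the MRPL34 values was not tested. MRPL34 fell in R273H against WT (log2 fold change -0.15, SE 0.0455, adjusted p = 0.0122), a call lost without WT dish 1 or R273H dish 1, with DESeq2 (adjusted p = 0.0671) and with the length and GC trend removed (-0.00299, adjusted p = 0.97). MRPL38, a central protuberance protein, had 73.7, 72.4 and 69.5 CPM in the 3 WT libraries, 78.3, 77.4 and 75.2 in those of G245S and 71.6, 67.98 and 66.9 in those of R273H. The G245S libraries lay above WT and the R273H libraries overlapped it, neither passing the test against WT (adjusted p = 0.0688 and 0.254), and differed from each other (log2 fold change 0.16, SE 0.0385, adjusted p = 0.0211; edgeR).

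MRPL17, the counterpart of a bacterial protein near the exit tunnel, had 97.4, 101 and 99.4 CPM in the 3 WT libraries, 99.9, 101 and 101 in those of G245S and 90.1, 95.6 and 91.6 in those of R273H. The R273H libraries were below all others (log2 fold change 0.12, SE 0.0337, adjusted p = 0.0411 between the mutants; edgeR). It fell in R273H against WT (log2 fold change -0.10, SE 0.0339, adjusted p = 0.0210), a call lost without WT dish 2, R273H dish 1 or R273H dish 3, with DESeq2 (adjusted p = 0.0982), without a filter on low counts (adjusted p = 0.0796) and with the trend removed (-0.0101, adjusted p = 0.848). Its call between the mutants was made in 5 of 18 alternatives and was lost with RLE scaling (adjusted p = 0.0511), upper-quartile scaling (0.0504), DESeq2 (0.0697) and no filter (0.0725). None of these 3 differences was called in every fit that left out 1 library: without G245S dish 1, 0 were called, against 5 genes without G245S dish 3, and 1 each without G245S dish 2, R273H dish 1 or R273H dish 3. The 3 calls were also lost when the length and GC trend was removed (adjusted p = 0.156 for MRPL34, 0.0722 for MRPL38 and 0.156 for MRPL17).

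**Figure D3:**
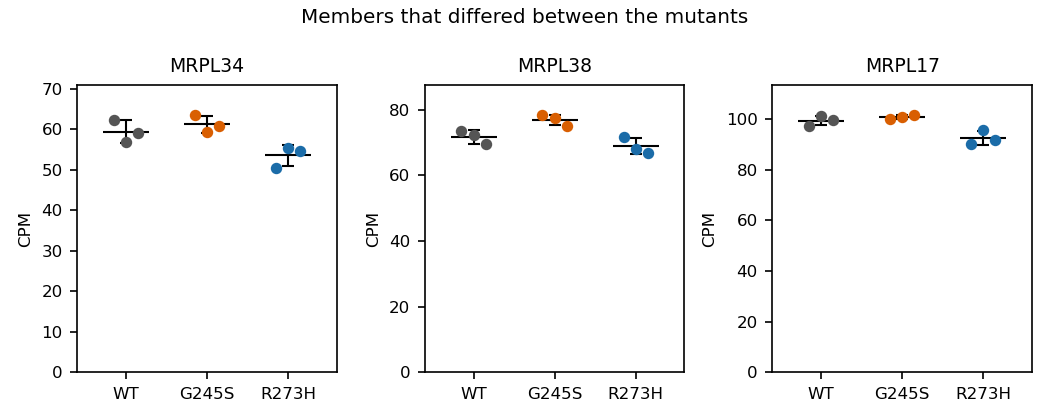
CPM in every library of the 3 MRPL genes called between the mutants, with the mean (horizontal line) and SD (bars) of 3 dishes, on axes that start at 0. The 3 R273H libraries lie below the 3 G245S libraries for MRPL34, MRPL38 and MRPL17, by log2 differences of 0.19, 0.16 and 0.12.

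Fold changes against WT were higher in genes with long coding regions than in short ones. Coding regions of the 49 genes ran from 195 to 1269 nt, with a median of 576 nt. Across these genes, which are not independent replicates, the log2 fold change and coding length had a Spearman correlation of 0.43 in G245S and 0.54 in R273H, beside 0.15 and 0.21 across 10886 protein-coding genes. In the 12 shortest genes (195 to 435 nt) the median was -0.0375 for G245S and -0.142 for R273H, with 4 that fell in G245S and 7 in R273H. In the 13 longest (801 to 1269 nt) it was 0.0706 and 0.0888, with 4 that rose in G245S and 7 in R273H. GC content of the coding region went the other way over the 49 genes, with correlations of -0.28 and -0.59, beside 0.033 and -0.18 across the protein-coding genes. For the difference between the mutants, GC content gave 0.7 over the 49 genes, beside 0.43 across the protein-coding genes. Coding length gave -0.3 for that difference, beside -0.13. What length and GC content contribute to these changes was not tested.

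With the trend that all genes showed with coding length and GC content taken out, the correlation with length over the 49 genes was 0.25 in G245S and 0.31 in R273H. The median log2 fold change was then 0.0887 and 0.0839, and 38 of 49 values in G245S and 36 in R273H were positive. MRPL49 (-0.51 and -0.54) and MRPL53 (-0.25 and -0.27) remained well below the others, and MRPL2 (0.26 and 0.28) and MRPL32 (0.23 and 0.28) remained among the highest.

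**Figure D4:**
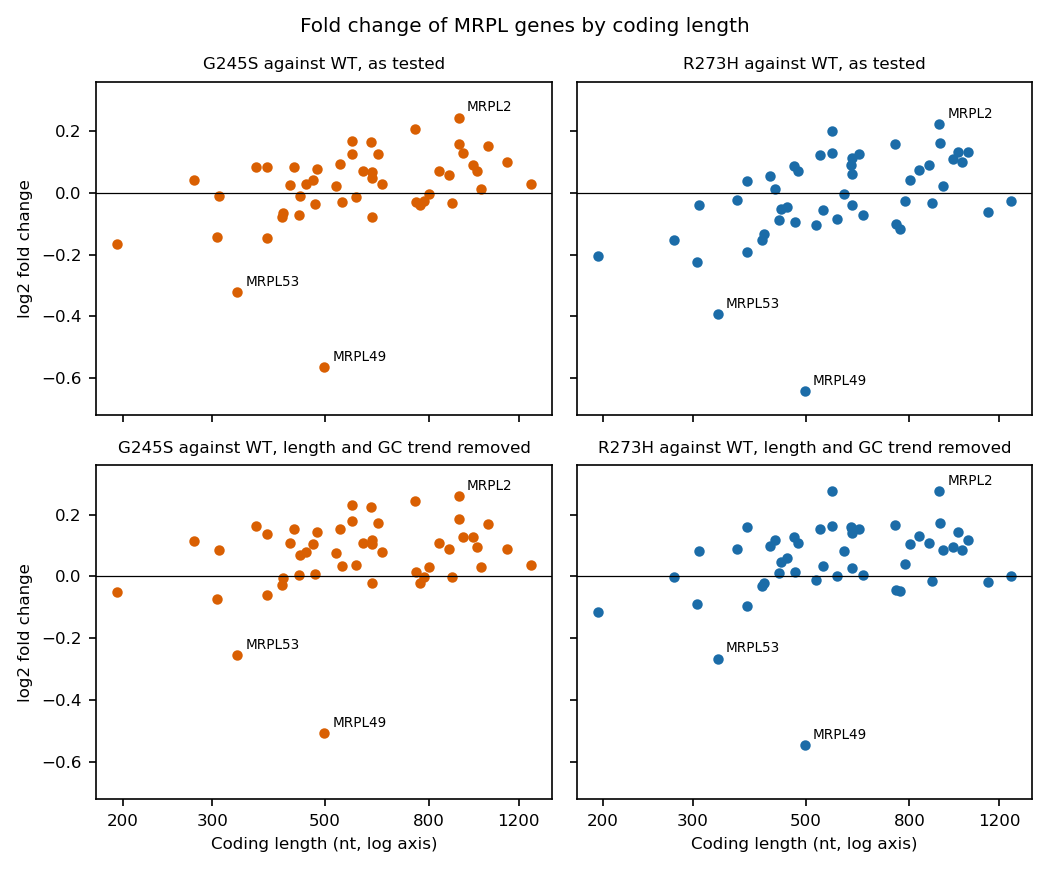
Log2 fold change against WT of the 49 MRPL genes by coding length (nt, log axis) in G245S (left) and R273H (right), as tested (top) and with the length and GC trend of all genes removed (bottom). The Spearman correlations are 0.43 and 0.54 in the upper panels and 0.25 and 0.31 in the lower ones, and MRPL49 and MRPL53 lie lowest in each.

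Levels of the genes differed far more among themselves than between groups. Per kilobase of coding length, MRPL51 had the highest mean level, at 583 CPM per kb in WT, 527 in G245S and 511 in R273H. It was followed by MRPL52, a central protuberance protein (432 CPM per kb over all libraries), and MRPL42, a mitochondria-specific protein (415 CPM per kb). MRPL52 had 159, 155 and 152 CPM in the 3 WT libraries, 175, 166 and 155 in those of G245S and 154, 152 and 153 in those of R273H, where G245S dish 3 overlapped WT. MRPL42 had 171, 171 and 179 CPM in the 3 WT libraries, 173, 178 and 178 in those of G245S and 177, 178 and 186 in those of R273H, and the 3 groups overlapped. Neither passed the test against WT (adjusted p = 0.0759 and 0.645 for MRPL52 and 0.625 and 0.179 for MRPL42; edgeR). With the length and GC trend removed both rose in both mutants, MRPL52 by 0.16 (adjusted p = 2.47e-05) and 0.0903 (0.0099) and MRPL42 by 0.11 (0.00102) and 0.0976 (0.00179), and MRPL52 in G245S also passed with upper-quartile scaling (0.0448), with the dish number as a block (0.0185) or without G245S dish 3 (0.00361).

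The lowest levels per kilobase were those of MRPL38 (63.6 CPM per kb), MRPL1 (66.1) and MRPL10 (72.5). Their coding regions were 1140, 975 and 783 nt long, against 384, 366 and 426 nt for MRPL51, MRPL52 and MRPL42. What coding length contributes to this order was not tested. MRPL1, part of the mobile stalk on the side where used tRNAs leave, had 58.6, 64.7 and 61.2 CPM in the 3 WT libraries, 65.3, 66.3 and 64.6 in those of G245S and 64.00, 67.1 and 67.9 in those of R273H. Its WT dish 2 overlapped the mutants, and the rise in R273H (log2 fold change 0.11, SE 0.0415, adjusted p = 0.0474; edgeR) lost its call in 6 of the fits that left out 1 library, with DESeq2 (adjusted p = 0.149) and with the trend removed (adjusted p = 0.0595). MRPL10, which anchors MRPL12 in the stalk, had 58.2, 60.02 and 54.1 CPM in the 3 WT libraries, 58.8, 59.8 and 50.95 in those of G245S and 56.6, 56.3 and 56.2 in those of R273H. The groups overlapped, with G245S dish 3 and WT dish 3 lowest in their groups, and neither contrast passed the test (adjusted p = 0.766 and 0.736; edgeR).

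**Figure D5:**
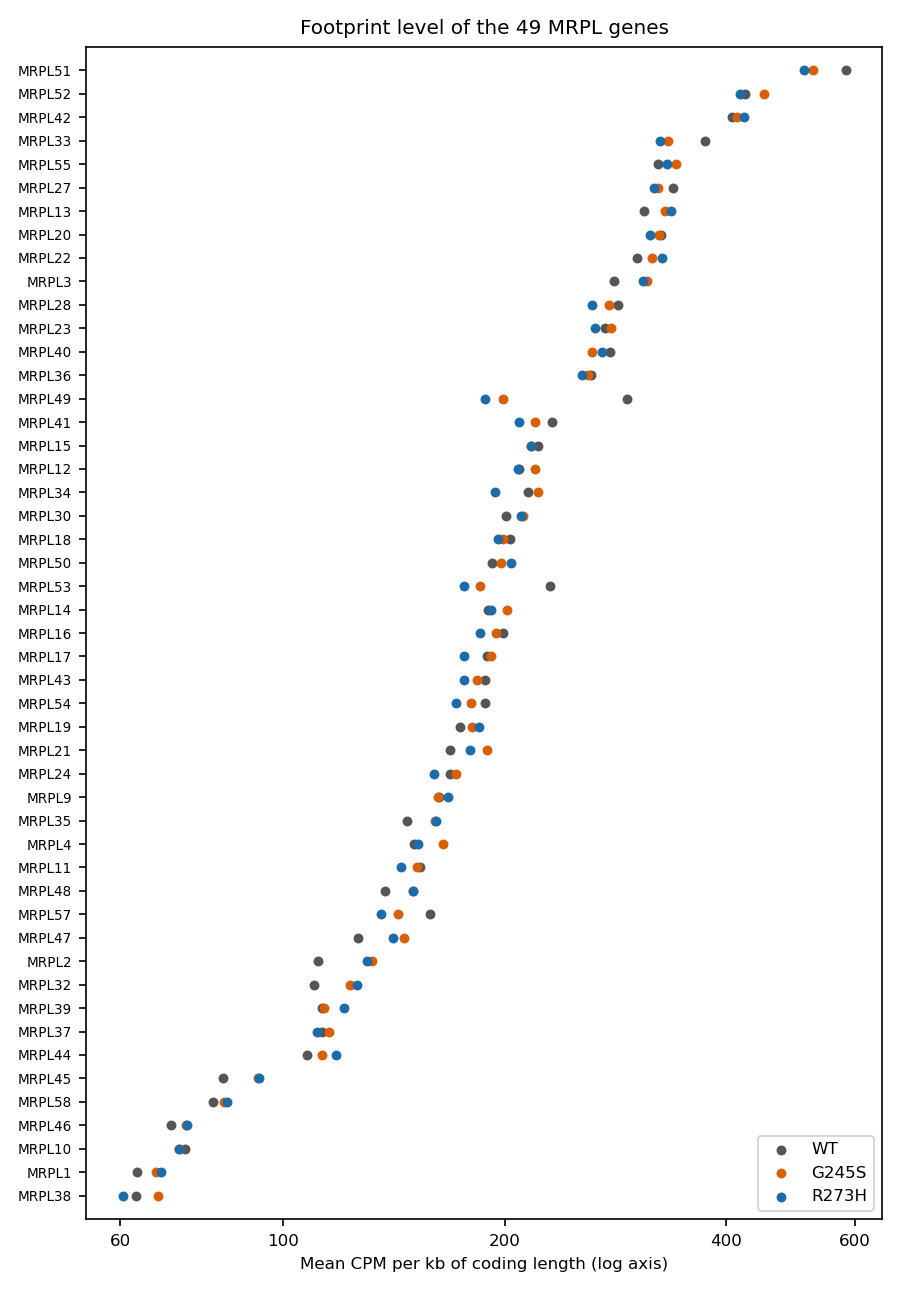
Mean CPM per kilobase of coding length (log axis) of the 49 MRPL genes in WT, G245S and R273H (3 dishes each), in order of the mean over all libraries. Levels run from 63.6 (MRPL38) to 540 (MRPL51) CPM per kb, and the groups lie close together for most genes, with MRPL49 and MRPL53 as the widest gaps.

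Promoter sequence was looked at for what the genes share. RefSeq (GRCh38.p14) windows of 300 bases, from 250 before to 50 after a start site, were matched by symbol for 42 of the 49 genes, and each motif was searched on both strands, with N for any base. CCGGAAG, the core bound by ETS-family factors, was found in 18 of 42 genes (42.9%, beside 12.2% of 27305 genes). AANATGGC, the core of YY1 sites, was found in 16 (38.1%, beside 8.0%). It holds the letters of a start codon, and in most of these genes it lay within 50 bases after the start site. The motif of NRF1 was found in 7 (16.7%, beside 7.0%), CACGTG in 6 (14.3%, beside 8.8%), TGACGTCA in 1 (2.4%, beside 2.2%) and CCAAT in 12 (28.6%, beside 39.7%). A half-site of the p53 motif was found in 4 (9.5%, beside 8.1%). The 27305 genes were all those with a window, whether or not they were expressed here, so shares among expressed genes are not given. A match is a description of letters, not a site of binding. Of the 18 genes with CCGGAAG, 3 rose and 3 fell in G245S and 3 rose and 8 fell in R273H. Of the 24 without it, 3 rose and 2 fell in G245S and 7 rose and 5 fell in R273H. Of the 16 with AANATGGC, 3 rose and 2 fell in G245S and 5 rose and 2 fell in R273H. Of the 26 without it, 3 rose and 3 fell in G245S and 5 rose and 11 fell in R273H. Whether direction differs with either motif was not tested.

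For the genes with values in every library that were called in both mutants, 1 match per gene is printed with the bases on each side, 30 bases in all, 5′ to 3′ on the strand that reads as the motif, from RefSeq on GRCh38.p14. A second match to the same motif, not printed, lies in MRPL53 and MRPL51 for CCGGAAG and in MRPL32 and MRPL47 for AANATGGC. Capitals mark the match to CCGGAAG in genes that fell (MRPL53, MRPL51 and MRPL33) and in one that rose (MRPL47).
MRPL53, chr2:74472734-74472763, minus strand: gcagccggcggCCGGAAGtctatcccgcag
MRPL51, chr12:6493348-6493377, minus strand: cggcaggcggaCCGGAAGcactgaggcggg
MRPL33, chr2:27771700-27771729, plus strand: cgggccgtgccCCGGAAGcagttgttgttg
MRPL47, chr3:179604659-179604688, minus strand: ggcttgagacgCCGGAAGtgacgctatcgt

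In the next lines capitals mark the match to AANATGGC in MRPL49 and MRPL51, which fell, and in MRPL32, MRPL45 and MRPL47, which rose.
MRPL49, chr11:65122333-65122362, plus strand: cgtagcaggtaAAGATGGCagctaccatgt
MRPL51, chr12:6493223-6493252, minus strand: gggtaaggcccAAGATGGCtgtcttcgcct
MRPL32, chr7:42932373-42932402, plus strand: ttccagcagggAAAATGGCgctggccatgc
MRPL45, chr17:38297170-38297199, plus strand: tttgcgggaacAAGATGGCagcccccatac
MRPL47, chr3:179604609-179604638, minus strand: agttatgcgaaAACATGGCtgcggccggtt

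The other parts of the mitoribosome were counted in the same fit. Of the 3 large-subunit proteins that carry other names, MRPS18A and MRPS30 rose in both mutants, MRPS30 from a mean of 87.3 CPM (WT) to 97.8 CPM (G245S) and 96.8 CPM (R273H). GADD45GIP1, which sits near the tunnel exit and is needed to insert newly made proteins into the inner membrane, had 137, 136 and 137 CPM in the 3 WT libraries, 139, 140.3 and 132 in those of G245S and 118, 117 and 126 in those of R273H. It fell in R273H (log2 fold change -0.18, SE 0.0336, adjusted p = 1.47e-04) and was higher in G245S than in R273H (log2 fold change 0.19, SE 0.0335, adjusted p = 0.00191; edgeR). Of 31 small-subunit proteins, 12 rose and 4 fell in G245S and 12 rose and 6 fell in R273H (51.6% and 58.1% called, beside 24.7% and 28.8% of all genes and 44.4% and 50.3% of genes in the count range of the MRPL genes), with medians of 0.0417 and 0.0221. MRPS27 rose in both mutants (log2 fold changes 0.26 and 0.30), as did MRPS9 (0.18 in G245S and 0.26 in R273H). MRPS33 fell in both (-0.20 in G245S and -0.15 in R273H). MRPS18C, at 134 CPM (WT), 143 CPM (G245S) and 157 CPM (R273H), was the small-subunit gene called lower in G245S than in R273H (adjusted p = 0.0210; edgeR). Of 20 assembly factors of the large subunit, 6 rose in G245S, and 7 rose and 2 fell in R273H (30% and 45% called), with medians of 0.0833 and 0.0653. MTERF3, which acts in mitochondrial transcription and large-subunit assembly, rose in both (0.23 and 0.27), as did RPUSD4, a pseudouridine synthase of the large-subunit rRNA (0.20 and 0.27). Whether these groups differ from the MRPL genes was not tested.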

How the data were processed

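The 9 footprint libraries (3 dishes for each p53 construct, in HEK293T cells) were analysed. Per the authors' methods and the submitters' processing notes, reads were trimmed with Trim Galore and cutadapt, barcodes of molecules were handled with UMI-tools where present, rRNA reads were removed, reads were aligned to GRCh38 with STAR, and SAMtools, FastQC and MultiQC were used. The deposited table holds expected counts (estimated counts per gene, 61.5% to 63.7% of nonzero values not whole), not scaled for depth or length by the authors. The counting tool, annotation release, use of strand and handling of reads that map to several genes are not given in the sources used here. Reads of overlapping genes and of near-identical copies are therefore uncertain. Exons of 12 members overlap another gene on the same strand and of 18 on the other strand, and 20 have a pseudogene of their name.

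Counts were rounded to whole numbers and tested by a robust quasi-likelihood fit of edgeR 4.0.16 (R 4.3.3; TMM scaling, default filterByExpr, two-sided tests), which took the 9 libraries together, had no term but group and left 6 residual degrees of freedom. Adjusted p-values are Benjamini-Hochberg values over the 19820 genes tested, and genes were called under 0.05. Libraries held 18.7 to 24.6 M counts, TMM factors were 0.987 to 1.01, and the biological coefficient of variation was 2.58%. The lowest and highest member counts in a library, 789.9 and 7988, carry counting errors of about 3.56% and 1.12%. Over 12656 genes, chi-square per degree of freedom between dishes of a group was 1.48 to 2.62, so no pair agreed within sampling noise. Fold changes compare a gene with the rest of its library. No spike-in, matched RNA-seq or group without a construct was used here. The fit was tested on simulated data.

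The MRPL genes, the other gene lists and the tests were chosen with earlier results of these data known. Values in every library were given, by rule, for the 4 called members with the largest positive and negative log2 fold change in each contrast against WT, every member called between the mutants, the 3 highest and 3 lowest per kilobase, and MRPL12, MRPL44, MRPL45 and MRPL58, and the 2 most changed called genes of each other list were named. Coordinates and coding lengths come from GENCODE release 44 (99.09% of identifiers matched). Alternatives were RLE and upper-quartile scaling, DESeq2 1.42.0, no filter on low counts, only the 6 libraries compared, leaving out each library, dish number as a block, removal of a spline trend (4 degrees of freedom, genes averaging 100 counts or more) with coding length and GC content followed by limma 3.58.1, both together, and a test against a 1.2-fold minimum (glmTreat).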

Additional observations from a re-analysis of the deposited data

Results flagged for a closer look

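MRPL34, MRPL38 and MRPL17 differed between the mutant groups in the direct test of G245S against R273H (edgeR, adjusted over all genes tested). MRPL34 was higher in G245S by 0.193 on the log2 scale (adjusted p = 0.0166), MRPL38 by 0.160 (adjusted p = 0.0211) and MRPL17 by 0.125 (adjusted p = 0.0411). All 3 G245S libraries lay above all 3 R273H libraries for each of the 3 genes, an order that 11.6% of all genes showed. It comes from the same libraries as the test. None of the 3 calls was made in every fit that left out 1 library, and all 3 were lost with the length and GC trend removed. MRPL17 was called in 5 of 18 alternatives.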

How the results depend on the processing

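With 1 library left out, the count of MRPL genes that rose in G245S was 9 to 13 and that fell 4 to 6, with a median of 0.0285 to 0.0411. In R273H these were 9 to 14, 8 to 13 and -0.0233 to 0.00417, and between the mutants 0 to 5 genes were higher in G245S, with a median of 0.0332 to 0.041. Upper-quartile scaling gave medians of 0.0404 (G245S) and -0.00878 (R273H). DESeq2 called 17 genes in R273H, 10 that rose and 7 that fell, in place of 27, and lost 1 call in G245S (MRPL57). With the length and GC trend removed, 27 rose and 2 fell in G245S (median 0.0887), 25 rose and 4 fell in R273H (0.0839), and 0 differed between the mutants (0.0163). Against a 1.2-fold minimum, 0 rose and 1 fell in G245S (MRPL49), 0 rose and 2 fell in R273H (MRPL49 and MRPL53), and 0 were higher in G245S than in R273H. Over protein-coding counts alone the MRPL share was 0.602% in WT, 0.601% in G245S and 0.597% in R273H. The shares of all genes called under these settings are not given here, so the counts describe the MRPL genes alone. Why these values moved was not tested.

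Dish numbers were used as a replicate block, although the sources used here do not say what dishes of the same number shared. Same-numbered libraries had correlations of 0.042 to 0.23, 4 of 9 pairs over 0.1, and 17 of 18 comparisons were best with the library's own number. With the block, 21 genes passed the test for G245S and 30 for R273H, and between the mutants 7 were higher and 1 lower in G245S. With the block and the trend removed, 29 rose and 3 fell in G245S (median 0.0876), 26 rose and 4 fell in R273H (0.0839), and 1 was higher in G245S than in R273H (0.0171). Here too the counts have no share of all genes beside them.

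The sign turned for 3 named genes that were not called against WT, of which MRPL12 and MRPL52 in R273H passed the test with the turned sign when the trend was removed (adjusted p = 0.0205 and 0.0099). With 1 library left out, MRPL10 ran from -0.0695 to 0.0497 in G245S and, for R273H, from -0.0658 to 0.00417, and was 0.0401 in R273H with the trend removed and 0.0398 with the block as well. MRPL12 in R273H was 0.0108 with upper-quartile scaling, 0.00548 without a filter, -0.0183 to 0.0117 with 1 library left out, 0.0838 with the trend removed and 0.0834 with the block as well. MRPL52 in R273H was 0.0903 with the trend removed and 0.0905 with the block as well. Of the other values for single genes, 653 kept direction and side of the threshold, 26 passed it newly and 82 no longer passed it. Precision is limited by 3 dishes per group and, for the members with the fewest counts, by depth, and the shares of these limits were not compared.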
